A study of Mus musculus with 12 samples.

Results

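The probes of mouse chromosome 7 were followed through tumour cells from both strain backgrounds of the study. The set held every probe that the array files place on chromosome 7, except a stretch of 45 probes between bases 12515654 and 15179146 and the probes named for olfactory or vomeronasal receptor genes (names starting with Olfr, V1r, V2r or Vmn). This left 2809 of the 3015 probes on the chromosome, out of 42404 on the array and 40726 on autosomes. Of the 206 probes left out, 45 lay in that stretch and 167 belonged to receptor genes, with 6 counted under both. The members ran from base 3564288 to base 152507860 of build mm9 at a median spacing of 17.3 kb, carried 1404 gene names on 2422 probes, and left 681 genes with a single probe.

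DNA copy number was compared between cultured cells of malignant peripheral nerve sheath tumours (MPNST, cancers of the nerve sheath) and non-neoplastic Schwann cells on 12 2-colour Agilent arrays. The 11 tumours all carried the P0-GGFβ3 transgene, which drives the neuregulin-1 isoform GGFβ3 from the P0 promoter of Schwann cells. A mixed background of C57BL/6J x SJL/J was shared by 7 tumours, named A394, A382, A292, A390, A202, A18 and 231 Trig, and 4 were on C57BL/6J, named B76, B86, B91 and B96. The reference was DNA of wild-type Schwann cells whose strain is labelled C57BL/6J, so the mixed tumours differed from it in strain as well as in transgene and tumour state. The tumour always took the Cy5 dye and the reference Cy3, and since the dyes were never swapped, effects of dye and of tumour cannot be told apart. Tumour cells grew out of explants with forskolin and NRG1β and were then kept without them, whereas the Schwann cells stayed in both throughout. The titles of 10 tumours give passages between 5 and 13, and several of these exceed the upper limit in the growth notes. Of A382 there are arrays from passage 8 and passage 9, whose mean stands for that tumour as 1 sample. The tumours were treated as separate because the labels name them apart, and p-values measure only the spread between these samples. No antigen or transcript was measured, so the cell type of the cultures could not be checked against its markers.

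All values are log2 ratios of tumour over reference signal, centred on each array's autosomal median, so 0 is the middle of that array's autosomes. The difference between neighbouring probes gave a noise of 0.18 to 0.25 log2 per array. Spots set to missing made up 0.72% to 1.99% of arrays on slide 1, which held A18, A202, 231 Trig and B86, against 0.06% to 0.11% on the other arrays. No spot was saturated, and each array had 99.4% or more of its probes well above background. Precision is limited by how few arrays there are.

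Chromosome 7 of the mouse carries clusters of imprinted genes, which are expressed from only the maternal or only the paternal copy, among them Igf2 and Cdkn1c near its distal end and Snrpn, Ndn and Ube3a in its middle. It also holds Tyr, the tyrosinase gene behind the albino coat of strains such as SJL/J, and large families of receptor and protease genes whose copies differ between inbred strains. In array comparative genomic hybridisation a probe's ratio compares how much tumour and reference DNA binds it, so that a ratio can move with the number of copies and also with differences in sequence under the probe.

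The sequences of 10 probes are given as the array files list them, because single probes carried the clearest contrasts between backgrounds. The files do not state a probe's strand, and no letter is capitalised. The first 5 are the probes that differed between the mixed and the C57BL/6J tumours in the test across all autosomal probes.
chr7:25071379-25071438, no gene name: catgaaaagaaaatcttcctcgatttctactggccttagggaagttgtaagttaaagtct
chr7:31523443-31523502, Gapdhs: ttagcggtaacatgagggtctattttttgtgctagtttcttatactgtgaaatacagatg
chr7:39008578-39008636, Plekhf1: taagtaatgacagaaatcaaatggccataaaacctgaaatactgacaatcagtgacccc
chr7:61749340-61749399, no gene name: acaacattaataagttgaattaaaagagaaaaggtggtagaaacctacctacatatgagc
chr7:110388682-110388741, no gene name: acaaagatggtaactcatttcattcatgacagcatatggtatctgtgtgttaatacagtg
The other 5 were chosen after their values were seen, from the probes that varied most between tumours.
chr7:38799528-38799587, Uri1: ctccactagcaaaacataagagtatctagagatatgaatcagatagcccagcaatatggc
chr7:52656026-52656085, AK137126: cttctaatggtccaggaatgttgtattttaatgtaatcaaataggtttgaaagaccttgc
chr7:73463240-73463299, Lrrk1: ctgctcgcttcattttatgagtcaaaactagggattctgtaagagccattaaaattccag
chr7:109952941-109953000, no gene name: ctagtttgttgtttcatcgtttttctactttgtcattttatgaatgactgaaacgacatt
chr7:119949016-119949075, Tead1: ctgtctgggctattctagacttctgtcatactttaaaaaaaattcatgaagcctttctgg

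The first comparison asked at what level the whole chromosome lay in each tumour. Along its length chromosome 7 stood slightly above the array middle in 4 of the 7 mixed tumours and slightly below it in all 4 C57BL/6J tumours. Among mixed tumours the chromosome median was 0.27 in A18, 0.20 in A292, 0.12 in A382, 0.07 in A202, -0.01 in A390, -0.02 in 231 Trig and -0.05 in A394. The C57BL/6J tumours were at -0.04 in B86, -0.06 in B96, -0.10 in B76 and -0.11 in B91. The lowest mixed tumour, A394, lay below the highest C57BL/6J tumour, B86, and the other 6 mixed tumours lay above all 4 C57BL/6J tumours. The mean was 0.08 ± 0.12 in mixed tumours (SD, n = 7) and -0.08 ± 0.03 in C57BL/6J tumours (SD, n = 4), a difference of 0.16. These are descriptions, and no test was made on the chromosome medians.

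**Figure D1:**
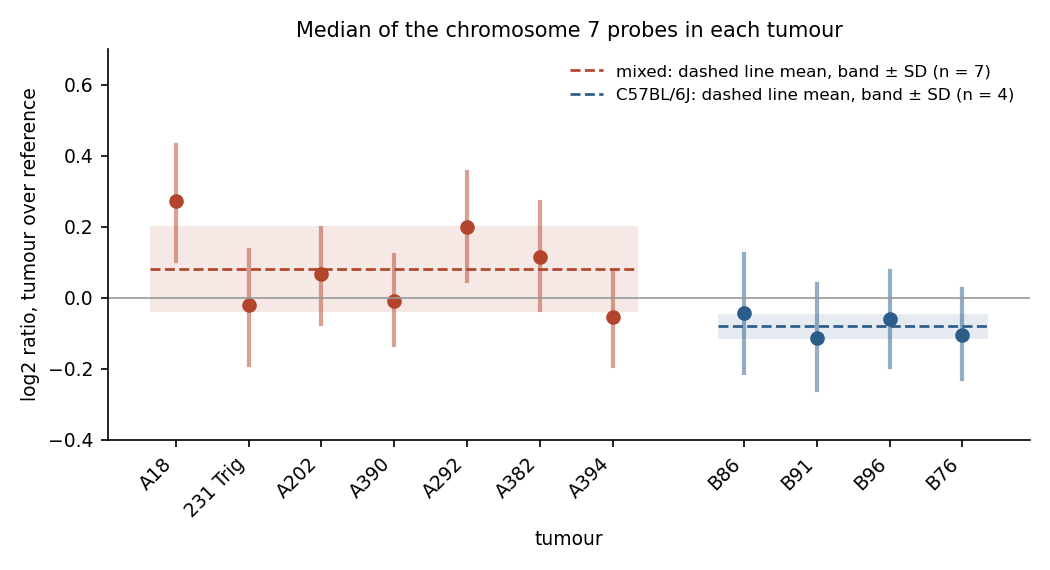
Median log2 ratio of the chromosome 7 probes in each tumour (points) with the interquartile range of the probes (vertical lines), mixed tumours on the left and C57BL/6J tumours on the right. Dashed lines and bands give each background's mean and SD, 0.08 ± 0.12 for mixed and -0.08 ± 0.03 for C57BL/6J, and A18 at 0.27 is the highest tumour.

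The share of probes above 0 was 84.4% in A18, 80.5% in A292, 70.2% in A382 and 61.1% in A202. It was 47.3% in A390, 46.3% in 231 Trig and 39.8% in A394. For the C57BL/6J tumours it was 43.0% in B86, 37.7% in B96, 30.6% in B91 and 29.5% in B76. A18 and A292 thus had most of their probes raised, while each C57BL/6J tumour had most of them under 0.

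Each slide carried both backgrounds. The mixed arrays averaged 0.11 and the C57BL/6J array stood at -0.04 on slide 1, which gave a difference of 0.15. On slide 2 the means were 0.11 and -0.11 (mixed and C57BL/6J), a difference of 0.23, and on slide 3 they were 0.01 and -0.08, a difference of 0.10. The sign was the same on all 3 slides, with 2 or 3 mixed arrays and 1 or 2 C57BL/6J arrays on each. A382 counted on slide 2 and again on slide 3, so the slides are not independent. On slide 3 A394 was at -0.05, close to B96 at -0.06, and A382 was at 0.08. With centring on the mode of the autosomal probes the C57BL/6J mean moved to -0.02, against 0.09 for mixed tumours.

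Among the 19 autosomes the difference of 0.16 was the second highest, after chromosome 12 at 0.17 and before chromosome 5 at 0.13. In absolute size it was the fifth, since chromosomes 6, 19 and 1 had larger differences of the opposite sign. The range over the 11 tumours was 0.39, the seventh smallest of 19. Chromosome 7 was the autosome with the second highest median in A18 and in A292, and it ranked 15 in B91, the lowest rank among tumours. It ranked 8 in B86, 11 in B96 and 12 in B76. The C57BL/6J mean was lower still on chromosomes 18 (-0.15), 5 (-0.13) and 10 (-0.10), and high on chromosomes 11 (0.63) and 6 (0.31). Gain segments held 18.1% to 35.2% of probes on the other autosomes in C57BL/6J tumours and 8.59% to 22.5% in mixed tumours. Their part in the centred level was not tested.

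The channels were then read apart. From each probe's log2 signal the median of autosomal probes of similar GC content in that channel was subtracted, and the chromosome 7 median was taken. Over the 12 arrays the tumour channel was 0.09 ± 0.13 (SD), with B76 lowest at -0.08 and A18 highest at 0.34. The reference channel was 0.091 ± 0.006 (SD), with a lowest value of 0.083 and a highest of 0.106. The arrays therefore differed in the tumour channel and hardly in the reference channel.

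A382 was measured at 2 passages with 1 array each, so their difference carries no test. Its chromosome 7 median was 0.08 at passage 9 and 0.15 at passage 8, a difference of -0.07. The other autosomes moved by -0.04 to 0.11 between the same arrays, so the move of chromosome 7 was the most negative. The probe values of the 2 arrays had a correlation across chromosome 7 probes of 0.958, which describes these arrays, since neighbouring probes are not independent.

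The level was next followed along the chromosome in 63 windows of 2 Mb, each the median of at least 10 probes. Mixed tumours were above C57BL/6J tumours by a similar amount from end to end. The difference between the means was above 0 in all 63 windows, from 0.09 to 0.22 with a median of 0.16. Over all 1013 autosomal windows the median difference was -0.01, with a range of -0.34 to 0.45, and 478 differences were above 0. No chromosome 7 window was called (0 of 63, background 0.00%, limma, adjusted p under 0.05 and a size of at least 0.1), with a lowest adjusted p of 0.416. At an unadjusted p under 0.05, 32 of the 63 windows were higher in mixed tumours (50.8%, against 3.85% of all windows) and 0 were lower (7.70% of all windows). Windows, probes and genes of the chromosome were read on the same tumours and are not independent. Such counts, here and below, largely repeat the difference in chromosome level. All 7 mixed tumours stood above all 4 C57BL/6J tumours in 13 of the 63 windows, against a background of 2.67%.

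Among the windows with the highest differences were those from 10 and 142 Mb. The window from 142 Mb, with the guanine exchange factor gene Dock1, the phosphatase gene Ptpre and the proliferation marker gene Mki67, ranged in mixed tumours from 0.02 to 0.32 with a median of 0.14. In C57BL/6J tumours it was -0.05 in B86, -0.05 in B91, -0.08 in B96 and -0.07 in B76. The groups did not overlap, and the difference was 0.22 (SE 0.07, limma adjusted p 0.416).

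The window from 10 Mb, with Zik1 and Nlrp4b, averaged 0.19 ± 0.17 in mixed tumours (SD, n = 7) and -0.03 ± 0.12 in C57BL/6J tumours (SD, n = 4). The groups overlapped there, with 5 of 7 mixed tumours above all C57BL/6J tumours.

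The 3 lowest differences lay in the windows from 110, 58 and 56 Mb. The window from 110 Mb, with the embryonic globin genes Hbb-bh1 and Hbb-y, averaged 0.08 ± 0.09 in mixed tumours and -0.01 ± 0.08 in C57BL/6J tumours. The window from 58 Mb, with Ano5, Slc17a6, Fancf and Gas2, gave a difference of 0.10, and the window from 56 Mb, with Nav2, E2f8 and Htatip2, also 0.10. Even these lowest windows kept the mixed mean above the C57BL/6J mean.

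**Figure D2:**
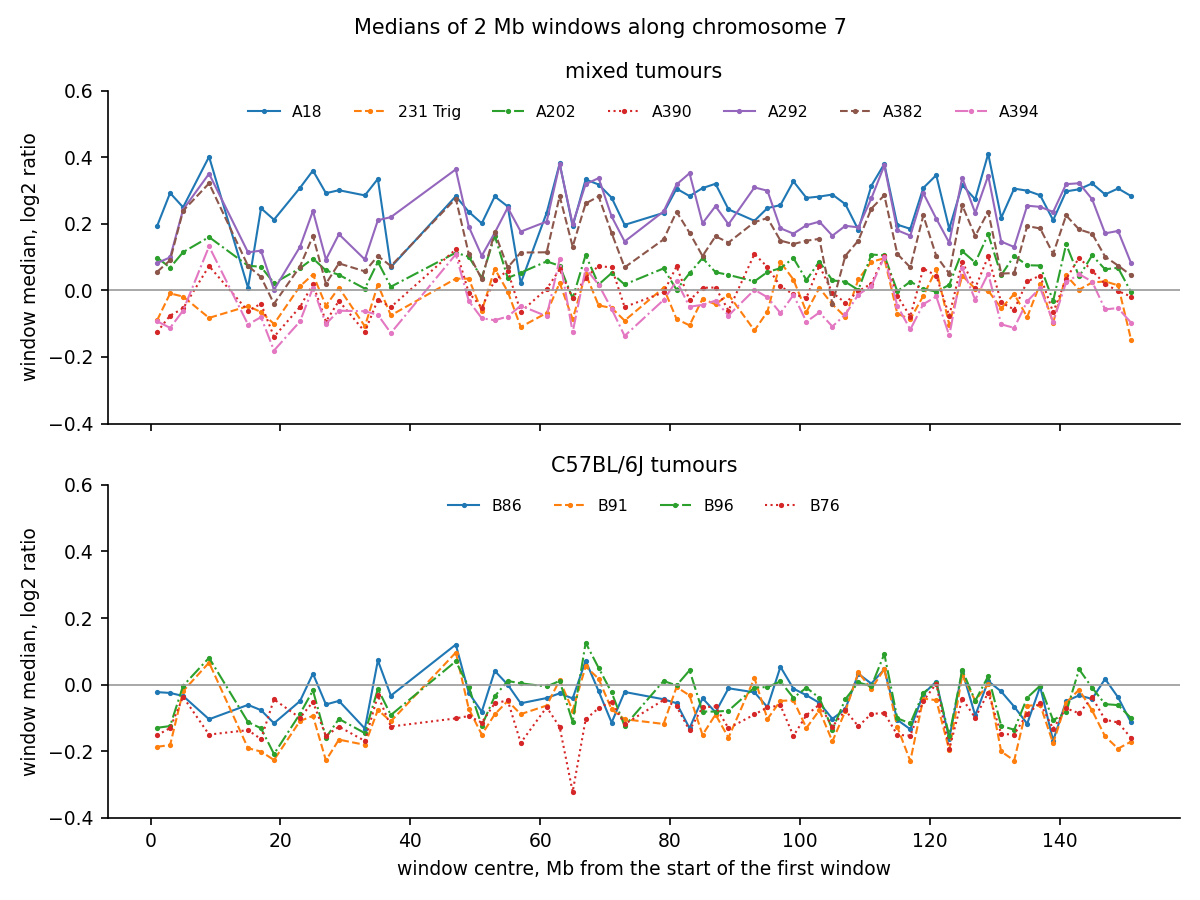
Medians of 2 Mb windows along chromosome 7, as log2 ratio against the distance from the start of the first window, with mixed tumours above and C57BL/6J tumours below. A18 and A292 stay above 0 in 63 of 63 windows, B76 is above 0 in 1, and its lowest window reaches -0.32.

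Within a tumour the windows spread little, with an SD over the 63 windows of 0.05 to 0.08. Windows above 0 numbered 63 in A18, 63 in A292, 61 in A382 and 58 in A202, then 30 in A390, 25 in 231 Trig and 16 in A394. Among C57BL/6J tumours they numbered 16 in B96, 13 in B86, 10 in B91 and 1 in B76. The lowest window of any tumour was in B76 at 66 Mb, at -0.32, with 12 probes and the imprinted genes Atp10a, Ube3a and Snrpn. The other 10 tumours lay between -0.13 and 0.20 there. That window was singled out after its values were seen.

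Against the reference 5 of the 63 windows were called higher over the 11 tumours, 7.94% against a background of 14.9% (limma). They began at 48, 68, 114, 126 and 130 Mb, with means of 0.14, 0.12, 0.14, 0.12 and 0.12 and adjusted p of 0.0187 to 0.0489. The 68 Mb window holds the imprinted genes Ndn, Mkrn3 and Peg12. No window was called lower (limma, background 15.3%), and 0 were lower at an unadjusted p under 0.05. The share called higher was below the background, and only 1 window was called without A18 or without A292, 2 without A382, 3 without A394, B86 or B96, and 0 without slide 1.

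Breaks were sought by segmenting each tumour's probes, where each break cost 40 times the noise variance and a segment needed 5 or more probes. A segment was called gain or loss at a mean of at least 0.2 or at most -0.2, and a break was called where neighbouring segments differed by at least 0.2. With 1 array for each tumour but A382, these segments carry no test. In all there were 20 breaks, of which 12 were called, with 6 gain and 3 loss segments.

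A single segment spanned the chromosome in the mixed tumours 231 Trig and A202 and in the C57BL/6J tumour B86. In A390, B91 and B96 the breaks had steps under 0.2. Called breaks stood in A292 with 4, in A18, A382 and A394 with 2 each, and in B76 with 2. Per 100 Mb this came to 2.69 in A292, 1.34 in A18, 1.34 in A382 and 1.34 in A394, against 0.533, 0.888, 0.577 and 0.444 on their other autosomes. In B76 it was 1.34, against 1.46 on its other autosomes. The 2 called breaks of A394 and 2 of the 4 in A292 bounded losses of 5 probes, of which 3 were low. In A382 passage 9 segmented alone had 0 called breaks. The rate of A394 and 2 of the 4 called breaks of A292 thus rest on few probes, and the rate of A382 on 1 passage. The other 2 breaks of A292 bounded a stretch of 122 probes, where every tumour was below its own flanking level.

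A18 was raised along almost the whole chromosome, with 99.2% of its probes in gain segments at means of 0.27 and 0.26. Between these lay a loss of 402 kb at 16685201 to 17087419 with a mean of -0.76 over 22 probes, a step of -1.02 from the segment before it. All 22 probes were below the flanking level of 0.30, between -1.40 and -0.17. The stretch carries 15 gene names, among them Bbc3, which encodes the cell death protein PUMA, the complement receptor genes C5ar1 and C5ar2, and Napa, Kptn, Meis3, Sae1 and Arhgap35. Over the same probes the other 10 tumours averaged between -0.20 and 0.08, so A18 stood alone there.

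At Bbc3 the ratio was -0.75 in A18, and the other mixed tumours lay between -0.05 in A394 and 0.32 in 231 Trig. C57BL/6J tumours had 0.22 in B86, -0.16 in B91, -0.09 in B96 and -0.08 in B76. Kptn, which encodes a regulator of growth signalling, was at -0.99 in A18 against 0.08 to 0.40 in the other mixed tumours. Napa, a membrane fusion gene, was at -0.84 in A18 against -0.12 to 0.17. At all 3 genes A18 was the lowest of the 11 tumours, and the means over all tumours were not called.

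B76 was the C57BL/6J tumour with a called segment at these settings, a gain of 192 kb at 19999196 to 20191618 with a mean of 0.49 over 17 probes. All 17 probes were above the flanking level of -0.17, between -0.10 and 1.03. The 10 other tumours averaged between -0.17 and 0.21 over these probes. The stretch holds 12 gene names, including Ckm, the muscle creatine kinase, Mark4, a kinase of microtubule-associated proteins, Bloc1s3, Gemin7 and Zfp296, and it ends at a probe of Relb, an NF-kappa-B subunit gene. Ckm was at 0.45 in B76, with -0.12 in B86, -0.21 in B91 and -0.10 in B96. Mark4 was at 0.49 in B76, with -0.27, -0.13 and -0.18 in the same 3 tumours.

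A292 was raised less evenly, with 69.0% of its probes in gain segments. The first 47.2 Mb averaged 0.15. A stretch of 733 kb at 50785896 to 51519326 averaged 0.34 over 49 probes, the next 1.6 Mb averaged 0.01, and the rest of the chromosome averaged 0.22 but for 1 short segment. The 733 kb stretch holds 31 gene names, most of them kallikreins (Klk), a clustered family of serine proteases, with the sialic acid receptor gene Siglece. All 11 tumours were above their own flanking level there. Among C57BL/6J tumours the stretch averaged 0.08 in B86, 0.08 in B91, 0.13 in B96 and 0.03 in B76, each against a flank below 0.

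The next stretch of 1.6 Mb, at 51559596 to 53160073, held 122 probes and 79 gene names, among them the DNA polymerase gene Pold1, the interferon regulator gene Irf3, Rras and Atf5. It averaged -0.07 in A382 against a flank of 0.18, and 0.01 in A292 against a flank of 0.28. All 11 tumours were below their own flanking level there, from -0.18 in A394 to 0.12 in A18. A382 had a further lower stretch at 105463353 to 107804153, at -0.05 over 80 probes against a flank of 0.15, with Emsy, Uvrag, Rps3, Arrb1 and Ucp2. All 11 tumours were below their own flanking level in this stretch too, and the other tumours averaged between -0.18 in B91 and 0.25 in A18. In A382 the stretch stood at -0.07 at passage 9 and -0.04 at passage 8. Segmented alone, passage 9 had 0 called breaks and passage 8 had 3.

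A292 and A394 each had a loss called from 5 probes near 110 Mb that carry no gene name. In A292 it ran from 109952941 to 110201707 with a mean of -1.45, and in A394 from 109929046 to 110165593 with a mean of -1.58. Over the A394 interval the other tumours averaged -1.24 in A18, -0.89 in A382, -0.30 in A390, -0.21 in 231 Trig and -0.19 in A202. C57BL/6J tumours averaged 0.06 in B86, 0.14 in B91, 0.12 in B96 and 0.12 in B76. In each of the 2 called segments 3 probes were low, and the other 2 were at 0.44 and 0.47 in A292 and at 0.30 and -0.01 in A394. The probes starting at 109952941 and 110165534 were not well above background in these 2 tumours, so both means are no exact values.

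The same stretch holds 13 olfactory receptor probes that are not members of the set, and these were not low. Their median was 0.32 in A292, 0.15 in A394 and 0.40 in A18. In A292 they ranged from -0.22 to 1.10, and in A394 from -0.50 to 0.64. With all probes of the chromosome in the segmentation, neither loss was called. Within this stretch the low values thus belong to 3 probes and not to the stretch as a whole. With at least 10 probes per segment a longer loss was called at 109664143 to 110165593, at -0.78 in A292 and -1.04 in A394. It takes in the Trim21 probe starting at 109711923, at -1.59 in A292 and -2.21 in A394. With the break cost at 20 times the noise variance, A382 also had a loss over the A292 interval, at -0.91.

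**Figure D3:**
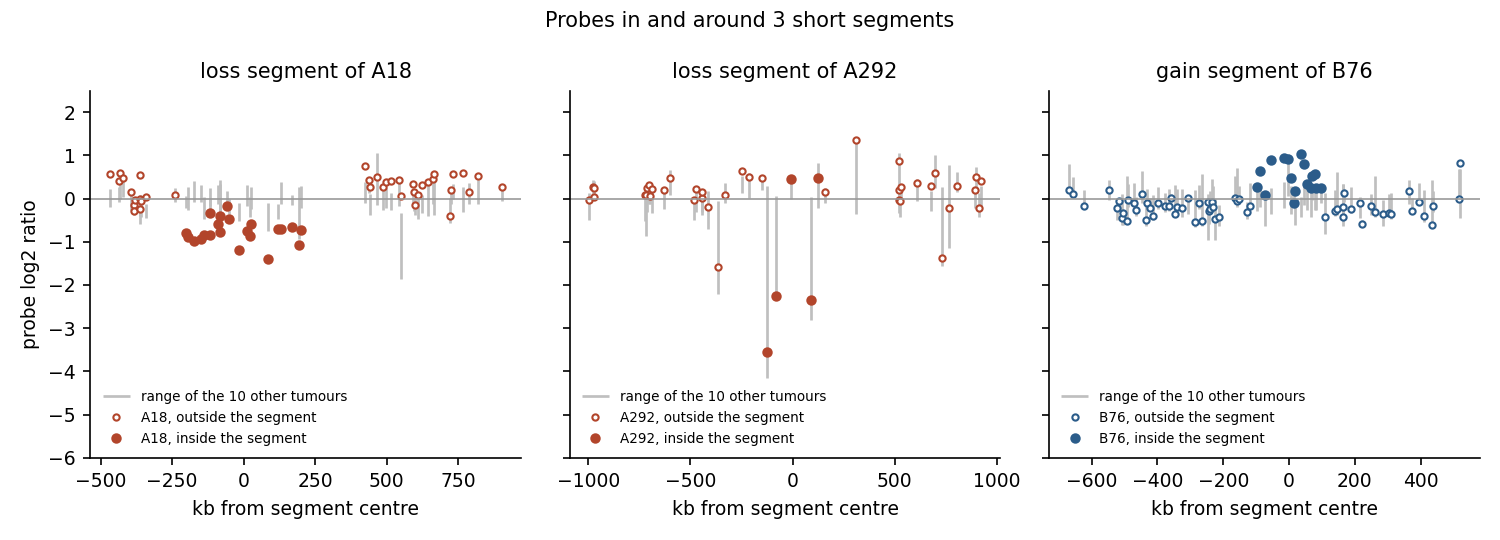
Probe log2 ratios against distance in kb from the centre of 3 short segments, the loss of A18, the loss of A292 and the gain of B76. Filled points are probes inside the segment, open points are probes outside it, and grey bars give the range of the 10 other tumours. All 22 probes of the A18 segment and all 17 of the B76 segment lie beyond their flank, while 3 of 5 do in A292.

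Single probes far below their neighbourhood were then counted, as probes at least 1 log2 below the running median of 51 probes. Mixed tumours had 22 in A18, 19 in A292, 18 in A382, 17 in A394, 3 in 231 Trig, 2 in A202 and 2 in A390. C57BL/6J tumours had 8 in B86, 6 in B76, 3 in B91 and 3 in B96. Per 1000 probes A18 had 7.91 on chromosome 7, against 4.26 on the other autosomes. A292 had 6.76 against 2.58, A382 had 6.41 against 2.80 and A394 had 6.05 against 2.18. Chromosome 7 ranked first among the 19 autosomes by this rate in A292 and A394 and the second in A18 and A382.

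The mixed tumours did not share this. 231 Trig had 1.08 per 1000 on chromosome 7 against 4.20 on the other autosomes, A202 had 0.725 against 3.46 and A390 had 0.712 against 2.37. In C57BL/6J tumours the rate was 2.88 in B86, 1.07 in B91, 1.07 in B96 and 2.14 in B76, each below the same tumour's other autosomes at 4.59, 2.05, 2.37 and 2.83.

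Probes whose values relative to that local level spanned at least 1.5 log2 over the tumours numbered 38, or 13.5 per 1000 against 10.6 on the other autosomes. The last probe inside this limit had a span of 1.51 and the first outside it 1.47. The 38 probes were taken by their spread, so their values are a description. At 23 of them all C57BL/6J tumours were above all mixed tumours, at 3 all were below, and at 12 neither held. Among the 433 such probes on all autosomes the background was 12.9% for C57BL/6J above and 3.00% for C57BL/6J below. At 14 of the 38 every C57BL/6J tumour was at least 0.3 above its local level, and at 10 every one was within 0.3 of it.

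The variation sat mostly in single probes and, by the median probe, in the tumour channel. Of the 38 probes, 31 had no other such probe among their nearest 4, at a median distance of 11.9 kb to the next probe. The SD over arrays had a median of 0.95 in the tumour channel and 0.19 in the reference channel, where it was 0.13 over all members. Some of the 38 probes varied more in the reference channel than in the tumour channel. Examples are those of Zfp658 (1.53 against 1.19), Klhl25 (1.39 against 0.96) and Htatip2 (1.25 against 0.82). Such spans cannot be read as differences between tumours alone. Their median GC content was 36.7%, the same as over all members.

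The widest span belonged to a probe of Lrrk1, a kinase gene, at chr7:73463240-73463299. It was at -3.40 in A18, -3.30 in A394, -3.18 in A292 and -3.11 in A382, and at -0.04 in 231 Trig, 0.52 in A202 and 0.56 in A390. The C57BL/6J tumours were at 1.20 in B86, 1.31 in B91, 1.15 in B96 and 1.34 in B76. The mixed tumours thus lay in a low and a middle range, all below the C57BL/6J tumours. The probe was not well above background on the arrays of A18 and of A382 at passage 9, so these ratios are no exact values. Its strain difference was not called (limma adjusted p 0.280).

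A probe of the cDNA AK137126 at chr7:52656026-52656085 was at -3.38 in A18, -2.76 in A382, -2.60 in A292 and -2.57 in A394, and at -0.63 in 231 Trig, -0.18 in A390 and 0.10 in A202. The C57BL/6J tumours were at 0.25 in B86, 0.60 in B91, 0.50 in B96 and 0.65 in B76. Again no mixed tumour reached the C57BL/6J values. At Uri1, which encodes a prefoldin-like chaperone, the probe at chr7:38799528-38799587 was at -1.87 in A382, -1.79 in A292, -1.78 in A394 and -1.58 in A18, and at -0.01 in A390, 0.21 in 231 Trig and 0.34 in A202. The C57BL/6J tumours stood at 0.78 in B86, 0.70 in B91, 0.63 in B96 and 0.64 in B76. Neither difference was called (limma adjusted p 0.273 for AK137126 and 0.280 for Uri1).

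Both probes of Mrgpra2b, a sensory neuron receptor gene of a family that varies between strains, ran the same way. The probe starting at 54753531 ranged in mixed tumours from -2.57 in A18 to 0.58 in A202, and in C57BL/6J tumours from 0.59 in B91 to 0.89 in B86. The probe starting at 54777889 ranged from -2.04 in A394 to 0.64 in A202 in mixed tumours, and from 0.79 in B76 to 1.16 in B91 in C57BL/6J tumours. The groups did not overlap at either probe.

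These probes lie in a stretch of 241 kb at 54644322 to 54885213, with 8 probes and Mrgpra2b as its one gene name, that other segment settings called. With the break cost at 20 times the noise variance it was a gain in all 4 C57BL/6J tumours and in no mixed tumour, and with all probes of the chromosome it was a gain in B96. Its mean was -0.46 in A394, -0.36 in A18, -0.34 in A382, -0.28 in A292, 0.07 in A390, 0.12 in 231 Trig and 0.44 in A202. The C57BL/6J tumours were at 0.55 in B86, 0.46 in B91, 0.46 in B96 and 0.39 in B76, so that A202 lay within their range. The stretch was singled out after its values were seen.

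Other probes were low in mixed tumours with C57BL/6J tumours close to 0. At the unnamed probe chr7:109952941-109953000 the mixed tumours ranged from -4.15 in A18 to -0.31 in A202, with a median of -2.04. It was not well above background on the arrays of A18, A292 and A394, so their ratios are no exact values. C57BL/6J tumours had -0.16 in B86, 0.28 in B91, 0.18 in B96 and 0.12 in B76. The probe of Tead1, a transcription factor gene of the Hippo pathway, at chr7:119949016-119949075 ranged in mixed tumours from -3.22 in A18 to -0.72 in A202 and A390, with a median of -1.73. C57BL/6J tumours had -0.35 in B86, -0.16 in B91, -0.33 in B96 and -0.23 in B76. At both probes the groups did not overlap and the difference was not called (limma adjusted p 0.344 and 0.288). Tead1 has 2 probes, whose mean was -1.27 ± 0.49 (SD) in mixed and -0.54 ± 0.12 (SD) in C57BL/6J tumours. As a gene it was thus not close to 0 in C57BL/6J tumours, and the backgrounds lay nearer together.

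The opposite direction was seen at a probe of the cDNA BC042662, starting at 28602198. It was at 2.01 in A18, 1.92 in A202, 1.90 in 231 Trig, 1.74 in A292, 1.46 in A394 and 1.37 in A390, but at -0.09 in A382. C57BL/6J tumours had 0.19 in B86, -0.05 in B91, -0.05 in B96 and -0.07 in B76. A382 alone among mixed tumours lay with the C57BL/6J tumours. At the probe of Rasip1, a vascular gene, starting at 52885244, C57BL/6J tumours had 1.93 to 2.24, and mixed tumours had 1.73 in A202, 1.66 in A390 and 1.25 in 231 Trig, with -0.10 to 0.08 in the other 4.

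**Figure D4:**
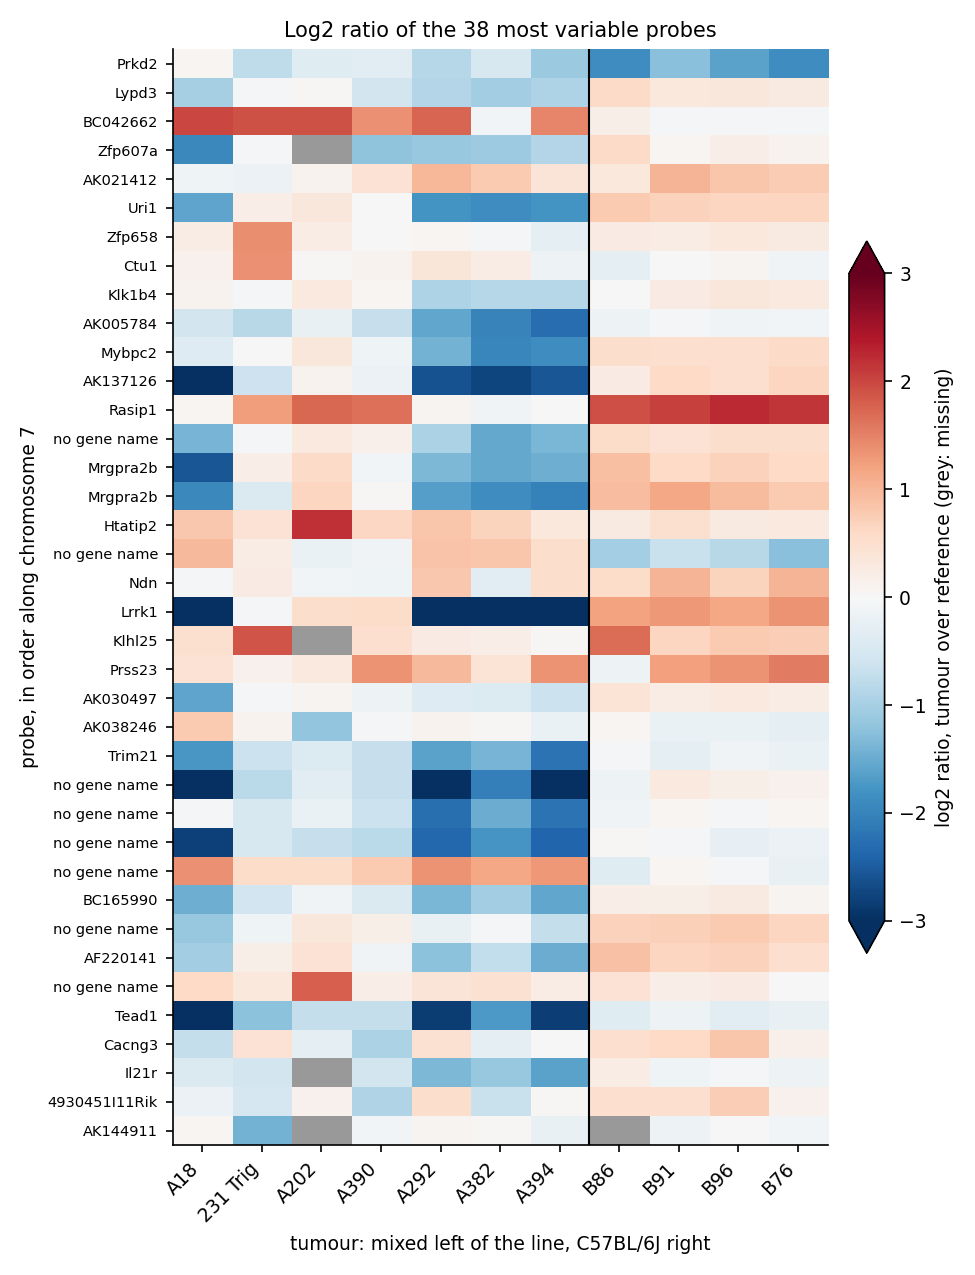
Log2 ratio of the 38 probes with a span of at least 1.5, in order along the chromosome, for each tumour, with mixed tumours left of the line and C57BL/6J tumours right of it. Blue is below 0, red above 0 and grey missing. A18, A292, A382 and A394 each have 17 to 19 of these probes more than 1 below their local level, and no other tumour has more than 2.

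Relative to the local level, 28 of 2700 probes had all mixed tumours below all C57BL/6J tumours with a difference of at least 0.5 in the means, 1.04% against a background of 0.229%. In the other direction there were 11, 0.407% against a background of 0.125%. Both shares were above those over all autosomes.

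The test across single probes asked which of them differed between backgrounds. Of 2806 chromosome 7 probes 5 were called higher in mixed tumours, 0.178% against a background of 0.0319%, and 0 lower against 0.00983% (limma, adjusted p under 0.05 and a size of at least 0.5). At an unadjusted p under 0.05, 773 were higher (27.5%, against 3.85% of all probes) and 49 lower (1.75%, against 5.52%). The median difference over these probes was 0.17, against 0.00 over all autosomal probes.

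At the probe of Gapdhs, a glycolytic enzyme gene of sperm, the mixed tumours ranged from -0.34 in 231 Trig to 0.32 in A18, with a median of 0.05. C57BL/6J tumours had -1.40 in B86, -0.82 in B91, -1.24 in B96 and -1.49 in B76. The mixed tumours lay around 0 and the C57BL/6J tumours, of the strain on the reference label, lay far below it, with no overlap. Whether the strain labels of the reference and of the tumours hold at this locus could not be checked with these files, here or at the other probes where C57BL/6J tumours lay far from 0, such as those of Plekhf1, Rasip1 and Lrrk1. The difference was 1.23 (SE 0.15, limma adjusted p 0.00945 over probes).

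The probe of Plekhf1, which encodes a protein of endosomes and lysosomes, ranged in mixed tumours from -0.33 in A390 to 0.29 in A18, with a median of -0.05. In C57BL/6J tumours it was -0.97 in B86, -0.98 in B91, -0.87 in B96 and -0.97 in B76. Again mixed tumours stood near 0 and C57BL/6J tumours well below it. The difference was 0.91 (SE 0.12, limma adjusted p 0.0242).

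The unnamed probe at chr7:61749340-61749399 gave the widest difference among the called probes, 1.39 (SE 0.22, limma adjusted p 0.0339). Mixed tumours ranged from -0.20 in A202 to 0.97 in A18 with a median of 0.54, and C57BL/6J tumours had -1.02 in B86, -0.67 in B91, -0.84 in B96 and -1.26 in B76. Mixed tumours spread over more than 1 log2 here, all above the C57BL/6J tumours.

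At the unnamed probe chr7:110388682-110388741 the mixed tumours were above the reference and the C57BL/6J tumours close to it. Mixed tumours ranged from 0.55 in 231 Trig to 1.37 in A18 with a median of 1.17, and C57BL/6J tumours had -0.36 in B86, 0.06 in B91, -0.03 in B96 and -0.22 in B76. The difference was 1.15 (SE 0.17, limma adjusted p 0.0262). At the unnamed probe chr7:25071379-25071438 mixed tumours ranged from 0.14 in A202 to 0.44 in A292 with a median of 0.31, and C57BL/6J tumours had -0.58 in B86, -0.19 in B91, -0.32 in B96 and -0.30 in B76. The difference was 0.65 (SE 0.10, limma adjusted p 0.0251), and the groups did not overlap at either probe.

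The calls depended on single tumours, while the sizes moved less. Their number was 0 without B76, without B86 or without B96, 1 without B91, 2 without A292, 3 without A18, and 8 without 231 Trig, A202 or A390. With slide as a fixed term it was 0, at differences of 0.63, 1.18, 0.93, 1.38 and 1.21 in order along the chromosome and adjusted p of 0.0839 to 0.165. Within each slide all 5 probes were higher in mixed arrays, by 0.56 to 0.85 at the first, 0.85 to 1.41 at Gapdhs, 0.89 to 1.01 at Plekhf1, 1.22 to 1.68 at the fourth and 1.05 to 1.34 at the last. A382 counted on slides 2 and 3 in these values.

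**Figure D5:**
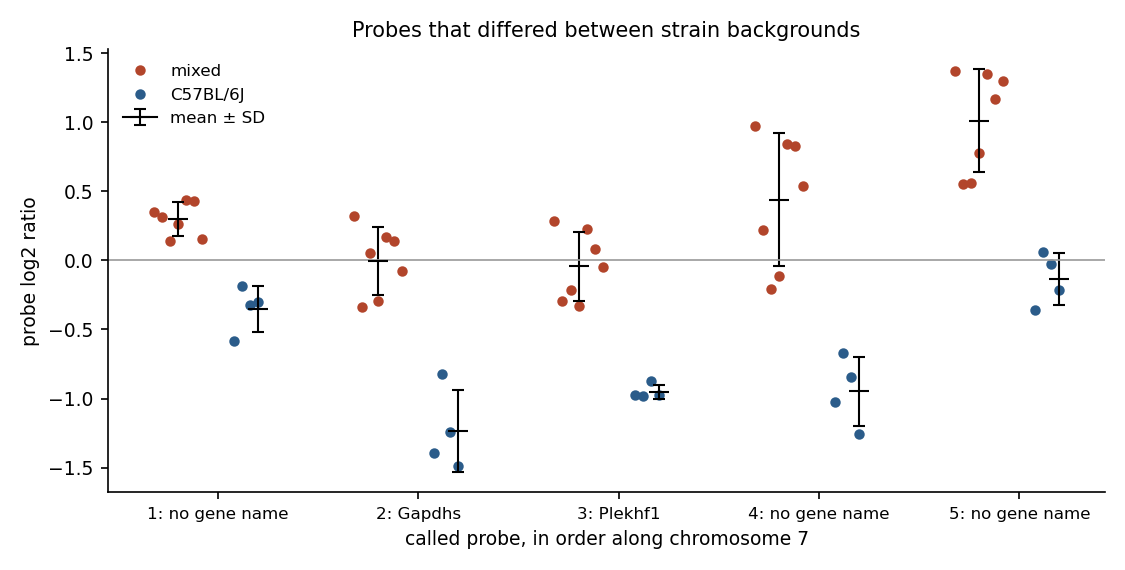
Log2 ratio of the 5 probes called between backgrounds, in order along the chromosome (the probes at 25071379, Gapdhs, Plekhf1, 61749340 and 110388682), with each tumour as a point, mixed left and C57BL/6J right, and the mean with its SD. The groups do not overlap at any of the 5, and Gapdhs is at -0.00 ± 0.24 in mixed tumours and -1.24 ± 0.30 in C57BL/6J tumours.

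At the level of genes, means of a gene's probes, Gapdhs was the 1 of 1403 genes called higher in mixed tumours (limma, adjusted p under 0.05 and a size of at least 0.2, background 0.0150%), from its single probe, with an adjusted p of 0.00304 over genes. None was called lower (0 of 1403, background 0.00%). At an unadjusted p under 0.05, 472 genes were higher (33.6%, against 4.49% of all genes) and 23 lower (1.64%, against 5.77%). The median difference was 0.17 over chromosome 7 genes and 0.00 over all genes. The Gapdhs call ended without slide 1 and with the running median of 5 probes, where the difference was 0.16.

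Against the reference, over all 11 tumours, 168 chromosome 7 genes were called higher (12.0%, background 18%, or 3605 of 20000 genes), 149 lower (10.6%, background 15.4%), and 1086 neither. As the same reference was hybridised throughout, this test leaves out the spread of the reference itself. Both shares were below the background. After a running median of 5 probes, which removes single-probe values, 53 were called higher and 28 lower.

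The highest called means belonged to the kallikrein genes Klk14 (0.72 ± 0.24, SD, n = 11) and Klk15 (0.58 ± 0.13), to Th, the tyrosine hydroxylase gene of catecholamine synthesis (0.61 ± 0.16), to Rasip1 (0.59 ± 0.46) and to 4930433I11Rik (0.58 ± 0.27), with limma adjusted p of 2.37e-08 to 0.000442. All but Rasip1 were above 0 in 11 of 11 tumours. With the running median, Klk15 stayed called at 0.25 and the calls on the other 4 ended.

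The lowest called means belonged to Tead1 (-1.01 ± 0.53, SD, n = 11), Trim21, an antibody receptor and ubiquitin ligase gene (-0.85 ± 0.76), the transcription factor gene Atf5 (-0.70 ± 0.13), the ribosomal protein gene Rps3 (-0.69 ± 0.34) and the seizure-related gene Sez6l2 (-0.53 ± 0.24), with limma adjusted p of 3.57e-09 to 0.00113 and values below 0 in 11 of 11 tumours. Rps3 has near-identical copies elsewhere in the genome, so its ratio is uncertain. Trim21 was at -1.24 ± 0.67 in mixed tumours (SD, n = 7) and -0.16 ± 0.10 in C57BL/6J tumours (SD, n = 4), and Rps3 at -0.50 ± 0.22 and -1.04 ± 0.22, differences that were not called (limma adjusted p 0.292 and 0.194). Gapdhs was also called lower over all tumours, at -0.45 ± 0.67, a call that ended without any 1 of the 4 C57BL/6J tumours and without slide 1. With the running median Trim21 turned to 0.05, Sez6l2 to 0.03 and Gapdhs to 0.17, and of these 6 genes Rps3 alone stayed called, at -0.22.

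The counts for the gene lists that follow stand beside shares over all genes of 18% called higher and 15.4% lower, and over chromosome 7 genes of 12.0% and 10.6%. Imprinted genes were split, with 3 of 21 called higher (14.3%), 2 lower (9.52%) and 16 neither (limma). With the running median 1 was higher and 0 lower, and the calls on the 4 named genes Th, Igf2, Ndn and Ampd3 ended. The median of the list was 0.06, against 0.01 over chromosome 7 genes and -0.01 over all genes. Th, Igf2, a fetal growth factor gene (0.31), and Ndn, which encodes the growth suppressor necdin (0.24), rose, and Ampd3 (-0.25) and Atp10a (-0.22) fell. Igf2 ranged in mixed tumours from 0.19 in 231 Trig to 0.61 in A18 with a median of 0.30, and was 0.24 in B86, 0.14 in B91, 0.30 in B96 and 0.18 in B76, with overlapping groups. Cdkn1c, a cell cycle inhibitor gene, was at 0.12 ± 0.20 in mixed tumours and -0.15 ± 0.15 in C57BL/6J tumours and was not called.

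Among oncogenes and growth signalling genes 2 of 22 rose (9.09%), 7 fell (31.8%) and 13 were not called, with a median of -0.07. The serine kinase genes Akt2 (0.34) and Pak1 (0.20) rose. Fes (-0.46), a tyrosine kinase gene, Rras (-0.39), a small GTPase gene, Axl (-0.34), a receptor kinase gene, and the growth factor gene Fgf3 (-0.25) fell. So did the cytokine gene Il16 (-0.23), the MAP kinase gene Mapk3 (-0.22) and Bcl3 (-0.21), which encodes an NF-kappa-B cofactor. The Mapk3 call, with 3 of 11 tumours above 0, ended in 6 of 21 alternatives, among them leaving out 231 Trig, B86 or slide 1 and both other centrings. The single Axl probe was not well above background on the array of A202. With the running median Akt2 was at -0.04 and Axl at 0.05, and 1 gene of the list was higher and 0 lower.

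Other named genes of growth and the cell cycle were not called. Igf1r, the receptor gene for insulin-like growth factor, averaged 0.04 ± 0.16 in mixed tumours and -0.10 ± 0.02 in C57BL/6J tumours. Fgfr2 averaged 0.00 ± 0.13 and -0.20 ± 0.06, Hras -0.09 ± 0.14 and -0.29 ± 0.07, and Ccne1 0.06 ± 0.19 and 0.22 ± 0.15, mixed before C57BL/6J. Ccnd1, the cyclin D1 gene, was at -0.85 in A202 and between -0.19 and 0.21 in the other mixed tumours, with -0.26 to -0.18 in C57BL/6J tumours. Its value came from 1 probe.

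Of 17 genes for tumour suppression, DNA repair and cell death, 2 rose (11.8%), 1 fell (5.88%) and 14 were not called, with a median of 0.05. Dmbt1 (0.36), a mucosal defence gene, and Mgmt (0.22), a DNA repair gene, rose, and Ppp1r15a (-0.32), a stress response gene, fell. All 3 calls ended with the running median, and that of Mgmt also without A292. Eed, a subunit gene of the polycomb complex PRC2 that is lost in many human MPNST, was at 0.08 ± 0.13 in mixed tumours (SD, n = 7) and -0.13 ± 0.12 in C57BL/6J tumours (SD, n = 4), and was not called (limma adjusted p 0.973 against the reference).

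Of 17 Schwann cell, myelin and nerve genes, 2 rose (11.8%), 1 fell (5.88%) and 14 were not called, with a median of 0.03. Mag, which encodes a glycoprotein of the myelin sheath (0.24), and its neighbour Cd22 (0.22), a B cell receptor gene, rose, and Lgi4 (-0.20), a signal for myelination, fell. The Lgi4 call ended in 7 of 21 alternatives, among them leaving out 231 Trig, A394, B76 or B86 and both other centrings, and the Cd22 call in 3, without A18, without A292 and with the running median. Mag ranged in mixed tumours from 0.14 in 231 Trig to 0.40 in A18 with a median of 0.34, and was 0.08 in B86, 0.20 in B91, 0.17 in B96 and 0.14 in B76. It stayed called with the running median, at 0.27. Prx, the periaxin gene, was at 0.04 ± 0.16 in mixed tumours and -0.17 ± 0.10 in C57BL/6J tumours, and the neurotrophin receptor gene Ntrk3 at 0.20 ± 0.15 and 0.03 ± 0.09, and neither was called.

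Of the 5 measured pigmentation and globin genes 0 rose, 1 fell (20%) and 4 were not called (limma, 2 with an unadjusted p under 0.05 between backgrounds). The list had a median of 0.06, and Hbb-bh1 (-0.23) fell, although the running median put it at 0.11 and the call ended with centring on the mode. Tyr ranged in mixed tumours from -0.11 in 231 Trig to 0.42 in A292 with a median of 0.17, and was 0.01 in B86, 0.14 in B91, 0.08 in B96 and 0.05 in B76. The groups overlapped at the albino locus, and its strain difference of 0.13 was not called (limma adjusted p 0.629). Oca2, a second pigmentation gene, was at 0.02 ± 0.07 in mixed tumours and -0.06 ± 0.04 in C57BL/6J tumours.

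Genes of clusters known to vary between inbred strains were called higher at 12 of 49 (24.5%), lower at 2 (4.08%) and neither at 35, with a median of 0.10. Examples that rose were Trim30b (0.38), of a family of antiviral and immune regulators, the pregnancy glycoprotein gene Psg25 (0.36), Ceacam11 (0.35), an adhesion molecule gene, and Mrgprb2 (0.30), a mast cell receptor gene. Saa4 (-0.22), a serum amyloid gene, and Siglecg (-0.23), a B cell inhibitory receptor gene, fell. With the running median 6 were higher and 2 lower, and Trim30b was at -0.00.

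In none of the 6 lists was a gene called between backgrounds (limma). At an unadjusted p under 0.05 there were 22 strain-variable, 8 imprinted, 8 tumour suppressor and repair, 6 oncogene, 3 Schwann cell and 2 pigmentation and globin genes. In the same order these were 44.9%, 38.1%, 47.1%, 27.3%, 17.6% and 40% of the measured genes, against 33.6% higher and 1.64% lower over chromosome 7 genes and 4.49% and 5.77% over all genes. The mixed mean was above the C57BL/6J mean at 44 of 49, 20 of 21, 17 of 17, 21 of 22, 17 of 17 and 5 of 5 genes of the same lists. Over the lists the median difference was 0.17 to 0.18, close to the 0.17 over all chromosome 7 genes.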

How the data were processed

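Ratios were used as deposited. Per the file headers they are the log10 of tumour over reference signal, after background subtraction, correction of spatial and multiplicative trends and linear dye normalisation in the scanner software, and the channel signals are intensity values. Software (Agilent Feature Extraction 9.5) and build (mm9) are given per the submitters' processing notes. The deposited log10 ratios were turned into log2, control spots dropped (43020 left), non-uniform and outlier spots set to missing, spots of a probe averaged, and arrays centred on the autosomal median. For 165 names on chromosome 7 the symbol was updated through RefSeq. No annotation of mm9 was used, so no exon or intron is assigned. The deposited table of the whole series held the same log10 ratios at all 45220 spots of each array, within 1e-06, with column medians of -0.00787 to 0.00048, and was not used further (0 columns unmapped).

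Genes (means of probes), 2 Mb windows and probes were fitted with limma 3.58.1 in R 4.3.3 over all autosomes, with Benjamini-Hochberg adjustment, and the scripts were tested on simulated data. Segments used penalised least squares, with isolated values limited to 3 noise SD around a running median of 5 probes. Python 3.11.15, numpy 2.4.6, pandas 2.3.3, numba 0.67.0 and matplotlib 3.10.9 were used.

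Named genes were the 5 highest and 5 lowest called means with 9 or more of 11 tumours on that side of 0, up to 10 called strain genes, up to 3 genes of each tumour's extreme segments, up to 4 of each list (called ones first), and 17 set genes such as Tyr, Igf1r and Ccnd1. The 5 largest called strain probes and the 3 highest and 3 lowest windows were also named, except 1 window that is not reported here. The members, lists and rules were chosen with earlier results of these data known. Alternatives were centring, normexp with an offset of 50, slide, passage, each tumour left out, running medians, dim probes, window length and value, segment settings and all chromosome 7 probes. Fits with slide as a block used passage 8 of A382, and slide as a fixed term was added after the data were seen.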

Additional observations from a re-analysis of the deposited data

Results flagged for a closer look

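Among 120 groups of 4 or 7 tumours tested for a sample far from the rest, 14 had one, and chance alone gives about 1 in 20. At Kptn, Napa and Bbc3, A18 was low at -0.99, -0.84 and -0.75, all 3 genes in its 402 kb loss segment, where the other mixed tumours were at 0.08 to 0.40, -0.12 to 0.17 and -0.05 to 0.32. At Ckm, B76 was high at 0.45 against -0.21 to -0.10 in the other C57BL/6J tumours, within its 192 kb gain segment. Kptn, Napa, Bbc3 and Ckm were named because they lie in these segments, so their flags follow from that choice. The 14 flags therefore cannot be set against the rate of 1 in 20. A18 was also high at Hbb-bh1 (0.13 against -0.21 to -0.15) and at Ampd3 (0.16 against -0.29 to -0.12). A382 was low at Klk15 (0.28 against 0.56 to 0.76), and A202 was low at Ccnd1 (-0.85 against -0.19 to 0.21). Of the C57BL/6J tumours, B86 was low at Rps3 (-1.36 against -0.97 to -0.89) and at Akt2 (-0.11 against 0.42 to 0.47), and high at Siglece (0.23 against -0.25 to -0.18) and at Kcna7 (0.17 against -0.08 to -0.04). B91 was low at Axl (-0.57 against -0.48 to -0.46), and B96 was the highest at the Plekhf1 probe chr7:39008578-39008636 (-0.87 against -0.98 to -0.97). The last 2 gaps are small in size. B86 lay on slide 1, as did A18 and A202, and the part of the slide in these values was not tested.

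The mixed and C57BL/6J tumours differed by limma at the Gapdhs gene by 1.23, and at 5 probes. These differences were 0.65 at chr7:25071379-25071438, 1.23 at chr7:31523443-31523502 (Gapdhs), 0.91 at chr7:39008578-39008636 (Plekhf1), 1.39 at chr7:61749340-61749399 and 1.15 at chr7:110388682-110388741.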

How the results depend on the processing

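The direction of the strain difference was the same in every alternative run: the chromosome difference stayed above 0 (0.13 to 0.18 with a tumour left out), as did those of the named windows and the 5 called probes. Leaving out each tumour gave mixed means of 0.05 to 0.10 and C57BL/6J means of -0.09 to -0.07, and 0 strain windows. Centring on the mode put the C57BL/6J mean at -0.023. Calls were less stable. With a tumour left out, genes called against the reference numbered 128 to 185 higher and 134 to 190 lower, windows 1 to 7 higher and 0 to 1 lower (1 without A18), strain genes 1 to 2 higher (2 without A18 or A394) and 0 to 1 lower (1 without 231 Trig), and strain probes 0 to 8 higher and 0 to 2 lower (2 without 231 Trig, 1 without A202).

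Without slide 1 the windows called against the reference were 0 higher and 1 lower, strain genes 0 higher, and strain probes 0 higher and 1 lower. With normexp there were 3 windows higher, 2 strain genes higher and 1 strain probe lower. With slide as a fixed term, an alternative added after the data were seen, there were 2 windows and 0 strain probes higher. Windows of 5 Mb gave 1 higher and window means 3. Centring on the mode left 1 strain probe, and a size minimum of 1 left 3. The running median of 5 probes gave 53 genes higher and 28 lower against the reference and 0 strain genes, and reversed Akt2 (-0.037), Axl (0.052), Gapdhs (0.17), Hbb-bh1 (0.11), Sez6l2 (0.027), Trim21 (0.052) and Trim30b (-0.0032). These are smoothed values of single-probe or 2-probe genes.

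Halving the penalty to 20 gave 49 called breaks, 22 gains and 8 losses. A call threshold of 0.1 gave 7 losses, and of 0.3 gave 2 gains. All probes of chromosome 7 gave 1 loss, that of A18. No paired analysis was possible because replicate numbers only name the tumours and follow accession order. One array for each tumour but A382 limits the segments, no dye swap was made, and depth of signal limited few probes, since at least 99.4% were well above background.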
